A study of Mus musculus with 20 samples.

Results

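Grafts of male (XY) donor islets, placed under the kidney capsule of female hosts, made up 6 of the 20 microarrays of the series. Of these, 3 grafts came from non-pregnant hosts (NP) and 3 from hosts on day 12.5 of pregnancy (P12.5). They were chosen by their labels alone, which name a male islet graft and the state of the host. Donors and hosts were C57bl6/J mice, young adults whose ages stand in the methods and not in the labels. All hosts had been made diabetic with streptozotocin, and a host was mated with a male only if the graft had restored its blood glucose, so the P12.5 grafts were selected for function. Grafts of female donors (3 NP and 3 P12.5 arrays) and islets that had stayed in the pancreas of female mice (4 NP and 4 P12.5 arrays) were used for comparison. The labels call the arrays biological replicates and name no animals, so a p-value reflects only how far these samples varied, which may be technical. The comparison addresses whether male islets take on the pregnancy profile of islets when their host is pregnant.

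During pregnancy, placental lactogens and prolactin act on beta cells through the prolactin receptor, which signals through JAK2 and the transcription factor STAT5. Beta cells then proliferate and many of them begin to make serotonin, starting from the tryptophan hydroxylases. A graft under the kidney capsule is revascularised by the host, and what is removed holds donor endocrine cells together with host vessels, connective tissue, blood cells and often kidney. Here the donor cells carry a Y chromosome and the host cells do not, so transcripts of Y-linked genes come from the donor and Xist, the RNA of the inactive X chromosome, from the host. Female mice of this strain can mount T cell responses to Y-encoded (H-Y) antigens of male tissue. No such response was measured here.

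Levels below are log2 expression values of a probe set, and a change is the mean log2 level of P12.5 minus that of NP, given ± SE. A gene was called when its adjusted p, from limma with Benjamini-Hochberg adjustment over all 35511 probe sets, was under 0.05 and its fold at least 1.5. In male grafts 331 probe sets were called, of which 153 carry no gene symbol. Among the 19938 genes, 151 were called (0.757%), 61 of them up (0.306%) and 90 down (0.451%). The median change of all genes was 0, with quartiles of -0.17 and 0.17. Pearson's r across probe sets, which are not independent, was 0.971 to 0.984 between male grafts of the same state and 0.958 to 0.974 between states. P12.5 array 3 stood apart by its connective tissue genes, as described with the host genes. The number of called probe sets depended on single arrays: it was 46 without NP array 2, 67 without P12.5 array 2, 119 without P12.5 array 3 and 173 without NP array 3.

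The labels were checked first against genes of the donor and the host. Eif2s3y, a Y-linked translation factor gene, stood at 7.2, 8.0 and 8.3 in the NP and 7.8, 7.7 and 7.4 in the P12.5 male grafts, against 3.4 to 3.7 in the 6 female grafts. The Y-linked genes Kdm5d (6.4 to 7.3) and Uty (6.8 to 7.9) were likewise high in all 6 male grafts, so every array held donor RNA. Xist was 8.9, 8.7 and 8.5 in NP and 8.6, 7.7 and 9.6 in P12.5 male grafts, and 9.6 to 10.7 in female grafts. Every male graft thus also held host RNA, least on P12.5 array 2 and most on P12.5 array 3 by this gene. The islet hormones were high and did not differ between states: Ins2 changed by -0.10 ± 0.09 (limma, adjusted p = 0.566), Gcg by -0.17 ± 0.11 (adjusted p = 0.435) and Sst by 0.10 ± 0.14 (adjusted p = 0.725). Acinar markers averaged 4.77 to 5.08 on the male graft arrays against 7.20 to 9.16 in islets taken from the pancreas.

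**Figure D1:**
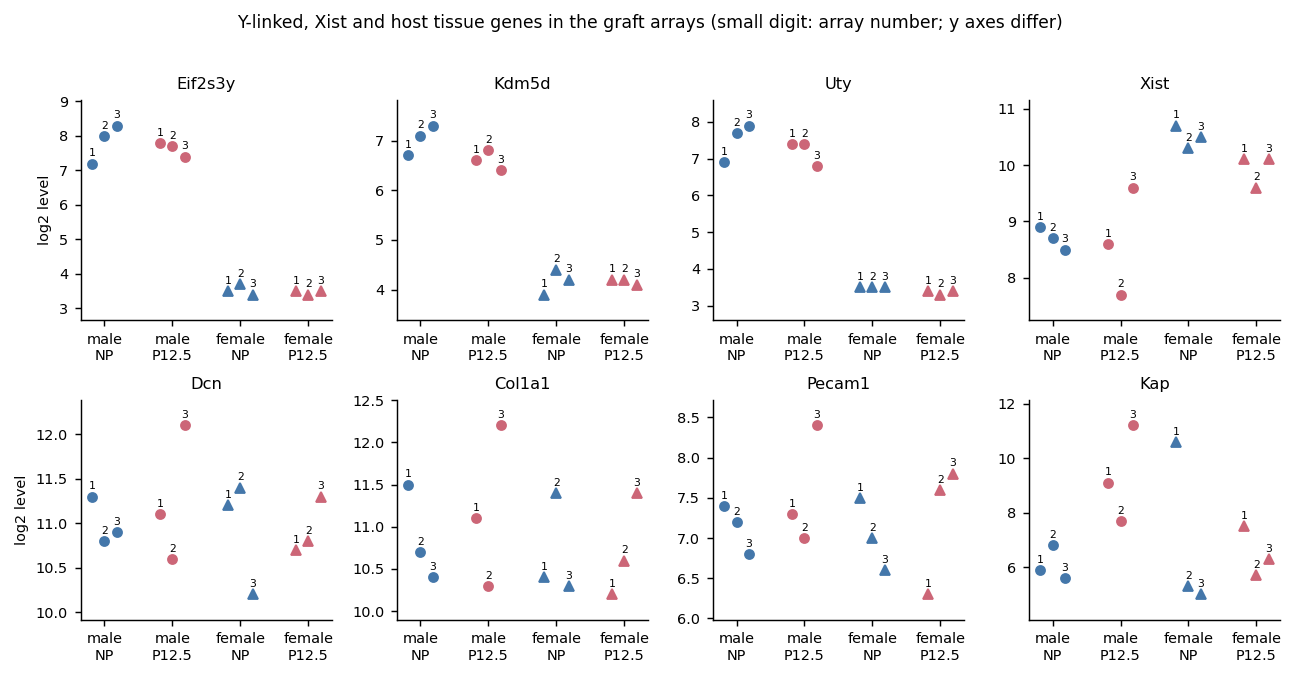
Log2 levels (y axes, which differ between panels) of 3 Y-linked genes, Xist and 4 genes of host tissue in each graft array, by donor sex and host state (x axis). The digit at each point is the array number. Eif2s3y, Kdm5d and Uty separate the 6 male grafts from the 6 female grafts, while Xist, Dcn, Col1a1 and Pecam1 are highest among the male grafts on P12.5 array 3.

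Most genes of the islet pregnancy gene signature, 12 genes that the study had picked from islets in the pancreas and not from grafts, were higher in male grafts of pregnant hosts. All 12 had a positive change, 7 were called up and 0 down, where 0.306% of all genes were called up. The groups did not overlap for 11, where 8.24% of all genes lay higher in P12.5 without overlap. Their median change was 1.48, against 0 for all genes. The mean level of the 12 genes was 6.60, 6.77 and 6.74 on the NP arrays and 8.39, 8.48 and 8.15 on the P12.5 arrays. Lists were chosen with earlier results of these data known, so their counts are descriptions.

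Tph1, the tryptophan hydroxylase that limits serotonin synthesis outside the brain, stood at 4.8, 4.4 and 4.6 in NP and 8.2, 8.0 and 8.3 in P12.5 male grafts. Its NP levels lay at the lower quartile of the arrays (4.7 to 4.9), where differences are compressed, so the 11.8-fold rise (3.57 ± 0.23, limma adjusted p = 9.74e-05) is no exact size. Tph2, the paralogue known from neurons, was 4.8, 5.4 and 5.1 in NP and 6.5, 6.7 and 5.9 in P12.5 grafts, and its change of 1.27 ± 0.27 missed the threshold (adjusted p = 0.0516). The serotonin receptor gene Htr2b, known to promote beta cell growth in pregnancy, rose from 4.3, 4.2 and 4.3 to 5.0, 5.0 and 4.9 (0.70 ± 0.13, adjusted p = 0.0395). Its NP levels were below every array's lower quartile and its P12.5 levels were not, and its call was lost whichever array was left out (adjusted p of 0.0600 to 0.128). Htr2b changed by 0.03 ± 0.13 in female grafts and by 0.08 ± 0.10 in islets from the pancreas. For this gene the male minus female difference in change was 0.67 ± 0.19 (limma adjusted p = 0.955). Tph1 and Htr2b were the called members among 18 genes of serotonin synthesis, transport and signalling, where 0.306% of all genes were called up. The list's median change was 0.27, against 0.12 in female grafts and 0.01 in islets from the pancreas. The vesicular amine transporter gene Slc18a2 stood at 4.7 to 4.9 in NP and 5.1 to 5.5 in P12.5 grafts, which did not overlap and did not pass (0.50 ± 0.12, adjusted p = 0.0796).

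Cldn8, which encodes a tight junction claudin, was the second signature gene by size, at 4.7, 5.4 and 6.0 in NP and 8.7, 8.9 and 8.6 in P12.5 grafts (3.37 ± 0.30, limma adjusted p = 0.00145). The NP grafts differed among themselves by 1.3 for this gene, and the P12.5 grafts by 0.3. Neb, the giant thin filament protein nebulin of skeletal muscle, rose from 5.4, 5.2 and 5.0 to 7.4, 7.5 and 7.2 (2.17 ± 0.24). Matn2, an extracellular matrix protein, rose from 8.5, 8.2 and 7.9 to 9.7, 9.8 and 9.8 (1.57 ± 0.14). Ivd, the isovaleryl-CoA dehydrogenase of leucine breakdown, went from 9.0, 9.5 and 9.5 to 11.0, 11.0 and 10.6 (1.53 ± 0.17). Car8, a carbonic anhydrase-related protein without the enzyme activity, rose by 1.5 ± 0.22, and Tnfrsf11b, the decoy receptor osteoprotegerin, by 1.40 ± 0.14. For each of these called genes every P12.5 array lay above every NP array.

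The other signature genes were not called. Lonrf3 stood at 5.2, 5.6 and 5.7 in NP and 7.2, 7.1 and 6.6 in P12.5 grafts (1.47 ± 0.33, limma adjusted p = 0.0634). Ehhadh, an enzyme of peroxisomal fatty acid oxidation, was 6.7, 7.8 and 7.4 against 8.2, 8.3 and 8.2 (0.93 ± 0.32, adjusted p = 0.153). Cish, a STAT5-induced inhibitor of cytokine signalling, was 8.3, 8.4 and 8.4 against 9.1, 9.2 and 8.8 (0.67 ± 0.32, adjusted p = 0.275). Its SE includes the spread of the female grafts, where Cish was 7.0, 8.4 and 8.4 in NP hosts. The values of these 3 genes did not overlap between states, and they did not pass in the fit of the 6 male arrays alone either (adjusted p of 0.0689, 0.176 and 0.117). Gbp8, an interferon-inducible guanylate-binding protein, was the exception: it stood at 7.8, 7.7 and 7.3 in NP and 7.8, 7.9 and 7.7 in P12.5 male grafts (0.20 ± 0.13, adjusted p = 0.430). In female grafts Gbp8 went from 7.0, 7.0 and 6.8 to 7.9, 7.8 and 7.9, so the P12.5 levels of both donor sexes lay side by side and the NP levels did not overlap.

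**Figure D2:**
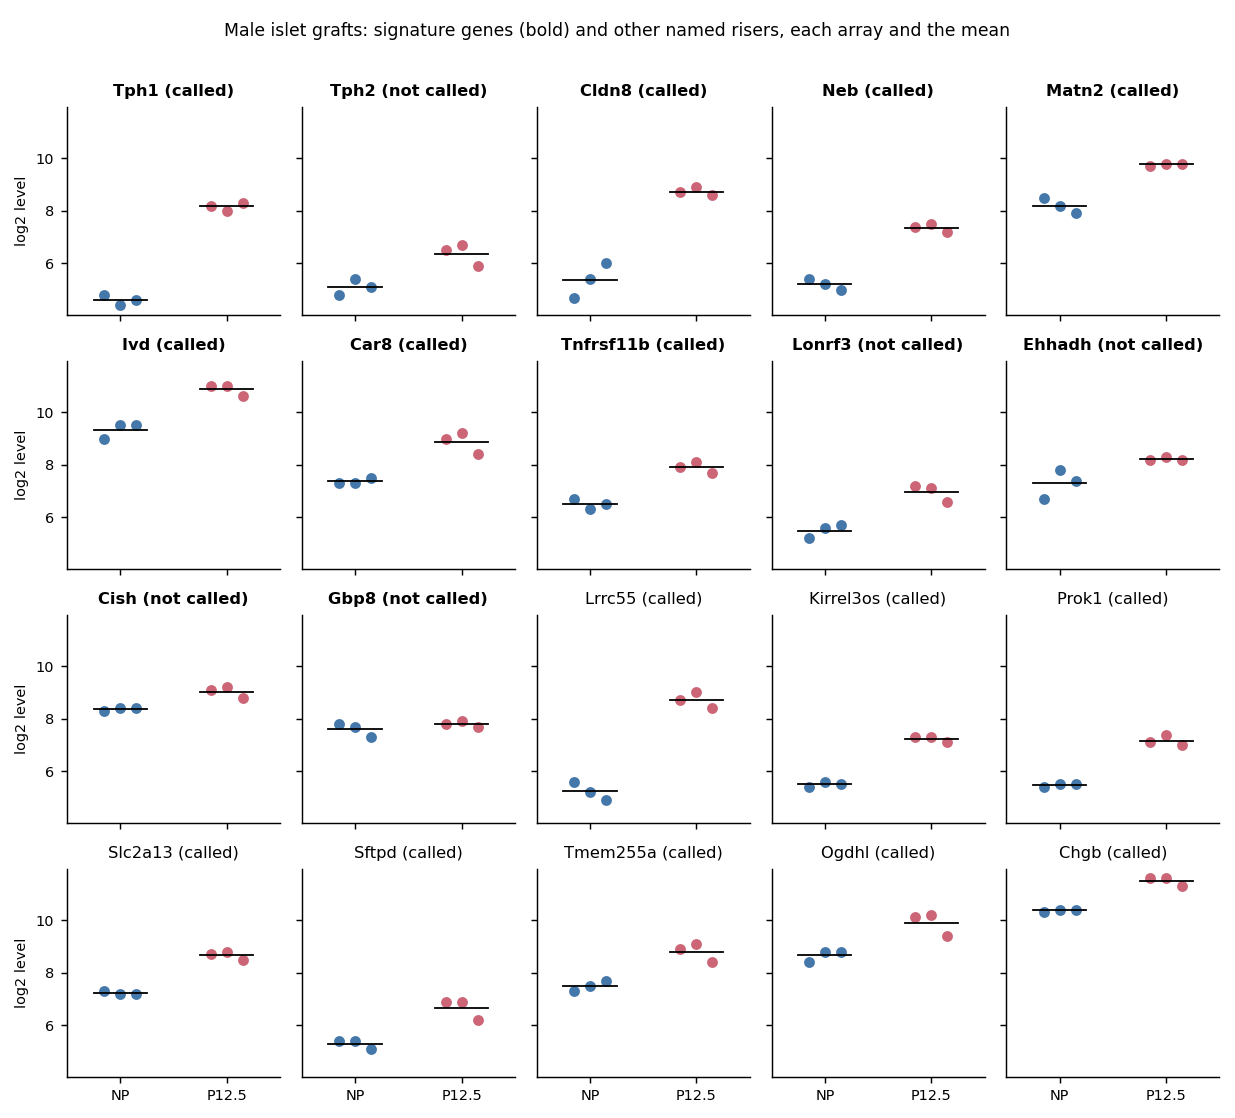
Log2 level (y axis, shared) of the 12 signature genes (bold) and 8 other named risers in each male graft array from NP and P12.5 hosts (x axis). Points are arrays and bars are group means, and every gene except Gbp8 has its 3 P12.5 points above its 3 NP points.

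The promoters of these genes were searched for the STAT5 motif TTCNNNGAA, a palindrome that reads the same on both strands, and for the glucocorticoid receptor motif, GNACA and TGTNC with 3 bases between them, on both strands. The window ran from 250 bases before to 50 bases after a gene's start, in the RefSeq annotation of GRCm38.p6. Of 15 genes looked for (the signature genes with Rgs2, Ddit4 and Fkbp5), 9 had an entry, 6 of them signature genes. Cldn8, Gbp8, Neb, Tnfrsf11b, Matn2 and Car8 had none. Matches to the STAT5 motif were found in 2 of the 6, Cish and Ivd, whereas 8.30% of all 32851 promoter windows hold one, a share per window and not per gene. The glucocorticoid motif had 0 matches in the 10 windows and lies in 0.475% of all windows. The 2 windows with a match and the window of Tph1, the gene with the largest change, are printed 5′ to 3′ on the strand of the gene with the STAT5 matches in capitals. Cish lies on the plus strand (chr9:107296409-107296708, matches from bases 251 and 262 of the window), Ivd on the plus strand (chr2:118861744-118862043, match from base 163) and Tph1 on the minus strand (chr7:46672488-46672787, no match). A second start of Tph1 (chr7:46667328-46667627) had no match either. The study names putative STAT5 sites in the promoters of Tph1, Tph2 and every other signature gene, without giving the stretch searched. It also cites earlier work in which the induction of Tph1 by placental lactogen depended on STAT5. A window without a match therefore does not show that the gene lacks a site. A match is a run of letters, not a bound site.
Cish: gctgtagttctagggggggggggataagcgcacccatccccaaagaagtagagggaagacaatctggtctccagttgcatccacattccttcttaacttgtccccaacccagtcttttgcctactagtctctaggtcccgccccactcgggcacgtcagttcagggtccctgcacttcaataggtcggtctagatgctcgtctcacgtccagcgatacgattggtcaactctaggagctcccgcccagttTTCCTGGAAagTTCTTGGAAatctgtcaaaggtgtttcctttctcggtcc
Ivd: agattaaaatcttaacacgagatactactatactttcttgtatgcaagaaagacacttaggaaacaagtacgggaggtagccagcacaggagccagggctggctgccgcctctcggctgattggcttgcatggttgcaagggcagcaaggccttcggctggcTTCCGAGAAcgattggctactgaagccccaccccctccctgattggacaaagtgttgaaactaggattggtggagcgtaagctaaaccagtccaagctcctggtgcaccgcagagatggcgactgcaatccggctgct
Tph1: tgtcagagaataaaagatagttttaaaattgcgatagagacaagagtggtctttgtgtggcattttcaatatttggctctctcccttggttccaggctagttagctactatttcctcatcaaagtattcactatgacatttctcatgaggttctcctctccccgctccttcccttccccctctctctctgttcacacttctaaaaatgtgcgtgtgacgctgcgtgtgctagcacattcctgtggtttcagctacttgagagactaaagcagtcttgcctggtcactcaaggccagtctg

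Outside the signature, the largest rise was that of Lrrc55, an auxiliary subunit of BK potassium channels, from 5.6, 5.2 and 4.9 to 8.7, 9.0 and 8.4 (3.47 ± 0.21, limma adjusted p = 9.74e-05). Kirrel3os, a transcript from the strand opposite Kirrel3, rose from 5.4, 5.6 and 5.5 to 7.3, 7.3 and 7.1 (1.73 ± 0.13). Prok1, the secreted peptide prokineticin 1, rose from 5.4, 5.5 and 5.5 to 7.1, 7.4 and 7.0 (1.70 ± 0.16). For these 3 genes every P12.5 array lay above every NP array. Slc2a13, a proton-coupled inositol transporter, rose by 1.43 ± 0.16, and Sftpd, the secreted collectin surfactant protein D, by 1.37 ± 0.18. Tmem255a rose by 1.30 ± 0.25 and Ogdhl, a mitochondrial oxoglutarate dehydrogenase-like enzyme, by 1.23 ± 0.20. Mir297b rose by 1.27 ± 0.18, but copies of this microRNA gene are near-identical and its value is uncertain.

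Among 21 genes of beta cell identity and function only Chgb was called up, where 0.306% of all genes were, and 0 were called down. Chgb, the granule protein chromogranin B, rose from 10.3, 10.4 and 10.4 to 11.6, 11.6 and 11.3 (1.13 ± 0.12, limma adjusted p = 0.00356). The list as a whole had a median of -0.23, with 13 negative changes and 6 positive. The zinc transporter gene Slc30a8 (-0.60 ± 0.21, adjusted p = 0.155) and the glucose transporter gene Slc2a2 (-0.53 ± 0.20, adjusted p = 0.185) did not pass. The list's mean level was lowest on P12.5 array 3, at 10.09 against 10.38 to 10.65 on the other male arrays, the array with the most connective tissue RNA. In bulk samples, fewer cells of a type and less RNA per cell cannot be told apart. Of 9 genes of other endocrine cells 0 were called, with a median of -0.17.

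Edem1, which helps to clear misfolded proteins from the endoplasmic reticulum (ER), rose from 9.1, 9.3 and 9.4 to 10.1, 10.1 and 9.7 (0.70 ± 0.14, limma adjusted p = 0.0437) as the 1 called member of 24 ER folding and stress genes, whose median was 0.15. It kept its call only without P12.5 array 3 when single arrays were left out. Outside that list, and chosen after the values were seen, were Fkbp11, an ER prolyl isomerase (1.03 ± 0.17), and Ern1, the ER stress sensor IRE1 (0.87 ± 0.16). Tmed3, a protein of transport between ER and Golgi, rose by 0.97 ± 0.19, and Creb3l1, a transcription factor held in the ER membrane, by 0.77 ± 0.16. Ern1 stood at 9.0, 9.2 and 9.2 in NP and 10, 10.1 and 9.9 in P12.5 grafts. The ER chaperone gene Dnajb9 was 10.2, 9.8 and 10.3 against 11.2, 10.9 and 10.7, which did not overlap and did not pass (0.83 ± 0.29, adjusted p = 0.155). Dhcr7, which completes cholesterol synthesis, rose by 1.00 ± 0.18 as the 1 called member of 18 cholesterol genes, whose median was -0.15, and lost its call whichever array was left out (adjusted p of 0.0551 to 0.103). Ivd was likewise the 1 called member of 26 genes that break down branched-chain amino acids or oxidise fatty acids, with a median of -0.15. Each of these lists held 1 gene called up, where 0.306% of all genes were.

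Of 44 measured proliferation genes 39 had a positive change and 1 was called, Prc1, a protein of the central spindle, which rose from 5.2, 4.9 and 5.1 to 6.0, 5.7 and 5.7 (0.73 ± 0.14, limma adjusted p = 0.0351). Of all genes 0.306% were called up. The median of the list was 0.22, and the P12.5 arrays lay above the NP arrays for 8 genes, where 8.24% of all genes did so. The call of Prc1 was kept only without NP array 1 when single arrays were left out. Mki67 stood at 6.3, 6.0 and 5.8 against 6.8, 6.3 and 6.4 (0.47 ± 0.18, adjusted p = 0.181), and Top2a at 6.8, 6.2 and 6.0 against 7.0, 6.9 and 6.6 (0.50 ± 0.20, adjusted p = 0.194). NP array 1 had the highest NP level of both genes, and for each the highest NP array reached the lowest P12.5 array. Top2a has 2 probe sets that differ, and their mean changed by 0.15. Among 19 cell-cycle regulators and 16 genes of prolactin receptor and JAK-STAT5 signalling 0 were called (medians 0.10 and -0.05). The prolactin receptor gene Prlr was not among the genes measured with a single symbol.

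Among the decreases, several were of genes that islet cells express. Ddit4, an inhibitor of the growth kinase mTORC1, fell from 7.6, 7.9 and 7.9 to 6.5 on all 3 P12.5 arrays (-1.30 ± 0.15, limma adjusted p = 0.00356). Rgs2, which shortens G-protein signals, fell from 8.1, 8.6 and 8.1 to 6.7, 6.9 and 7.0 (-1.40 ± 0.26, adjusted p = 0.0316). Errfi1, a feedback inhibitor of the EGF receptor, fell by 1.10 (SE 0.22), a call kept only without NP array 1 when single arrays were left out. Ddit4 and Errfi1 were the members called down, where 0.451% of all genes were, of 17 glucocorticoid-induced genes with a median of -0.37. Of that list Fkbp5, a chaperone of steroid receptors, stood at 8.1, 8.2 and 8.4 against 7.7, 7.9 and 7.4 (-0.57 ± 0.17, adjusted p = 0.125). Anp32e, a histone chaperone, fell from 8.3, 8.3 and 8.5 to 7.2, 7.1 and 6.7 (-1.37 ± 0.18), and Hapln1, a hyaluronan link protein, by 1.27 (SE 0.22). Usp17ld had the largest decrease (-3.00 ± 0.61), but it belongs to a family of near-identical genes and its value is uncertain. Glul, glutamine synthetase, fell by 1.00 (SE 0.14) and Grk5, a G-protein-coupled receptor kinase, by 0.93 (SE 0.15), both named after their values were seen.

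Of the 90 genes called down, 11 belonged to the lists of B cells, T cells, natural killer (NK) cells, leukocytes in general or MHC genes. Of 62 measured markers of B, T and NK cells, 60 had a negative change, 8 were called down and 0 up, where 0.451% of all genes were called down. The count of 8 rested on single arrays: it was 5, 1 and 21 without NP arrays 1, 2 and 3, and 6, 2 and 3 without P12.5 arrays 1, 2 and 3. It was 0 in the fit of the 6 male arrays alone and 30 with all 20 arrays. The NP and P12.5 male grafts did not overlap for 43 of the 62, with P12.5 lower, against 9.66% of all genes. B cell markers averaged 5.96, 6.22 and 5.83 on the NP arrays and 5.43, 5.34 and 5.47 on the P12.5 arrays. T cell markers averaged 6.81, 6.72 and 6.07 against 5.82, 5.78 and 5.69, and NK and cytotoxic markers 5.80, 5.52 and 5.23 against 5.04, 5.06 and 4.93. For each of the 3 lists the lowest NP array lay above the highest P12.5 array, and NP array 3 was the lowest NP array.

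**Figure D3:**
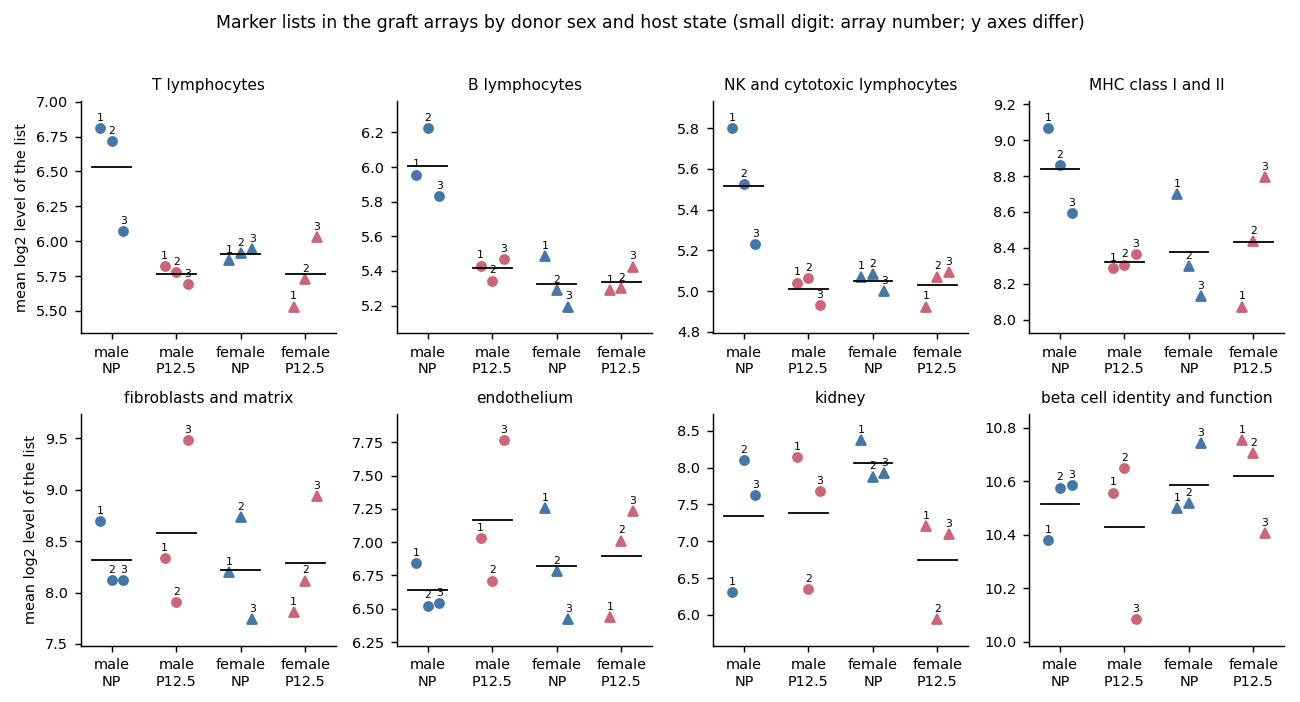
Mean log2 level (y axes, which differ between panels) of 8 marker lists in each graft array, by donor sex and host state (x axis), with group means as bars and array numbers as digits. The 3 male NP grafts lie above the other 9 graft arrays for T cells (6.07 or more), B cells (5.83 or more) and NK cells (5.23 or more), whereas the fibroblast, endothelial and kidney lists of the male NP and P12.5 grafts overlap.

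Of 16 B cell genes 15 had a negative change (median -0.52) and 4 were called down, where 0.451% of all genes were. Ms4a1, which encodes the B cell surface protein CD20, fell from 5.7, 6.2 and 6.0 to 4.8, 4.3 and 4.2 (-1.53 ± 0.19, limma adjusted p = 0.00827). Cd79a, the signalling chain of the B cell receptor, fell from 6.4, 6.3 and 5.9 to 5.3, 4.9 and 4.7 (-1.23 ± 0.20, adjusted p = 0.0202). Both ended at about the lower quartile of the arrays, so these sizes may be compressed. The tetraspanin gene Cd37 fell by 0.93 (SE 0.19) and Spib, a transcription factor of B cells, by 0.77 (SE 0.15). Pax5, the factor that sets B cell identity, was 5.9, 6.1 and 5.6 against 5.1, 5.4 and 5.2, and did not pass (-0.63 ± 0.16, adjusted p = 0.0824). Of 7 plasma cell genes 0 were called and the median was 0.27, with Jchain at 5.7, 6.0 and 7.9 in NP and 8.7, 7.2 and 5.9 in P12.5 grafts.

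All 29 T cell genes had a negative change (median -0.80). The groups did not overlap for 21, with P12.5 lower, against 9.66% of all genes. Called down were 2, where 0.451% of all genes were. Cd2, an adhesion receptor of T and NK cells, fell from 8.0, 8.1 and 6.8 to 6.2, 6.2 and 6.3 (-1.40 ± 0.29, limma adjusted p = 0.0463). Stat4, the transcription factor downstream of interleukin 12, fell from 6.6, 6.8 and 5.9 to 5.0, 5.0 and 4.8 (-1.50 ± 0.21, adjusted p = 0.0124). NP array 3 was the lowest NP array for both, and without it 14 T cell genes were called down. Without NP array 2 the count was 0, and without any other single array it was 1. Cd3g, a chain of the T cell receptor complex, was 8.9, 8.6 and 7.2 against 6.5, 6.6 and 6.2 (-1.80 ± 0.40, adjusted p = 0.0598). Genes of both main T cell classes showed the order: Cd4 was 7.5, 7.2 and 6.6 against 6.1, 5.9 and 6.0 (adjusted p = 0.0709), and Cd8a 7.9, 7.6 and 6.8 against 6.5, 6.5 and 6.3 (adjusted p = 0.0841). The inhibitory receptor gene Ctla4 stood at 7.0, 6.6 and 5.7 against 5.2, 5.0 and 4.6 (-1.50 ± 0.33, adjusted p = 0.0598). Foxp3, the factor of regulatory T cells, overlapped between states (6.3, 6.0 and 5.4 against 5.4, 5.8 and 5.6). These uncalled T cell genes, like all other uncalled genes named here outside the signature and the marker checks, were picked after their values were seen.

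Of 17 NK and cytotoxic genes 16 had a negative change (median -0.47) and 2 were called down, where 0.451% of all genes were. Klrd1, which encodes the receptor chain CD94, fell from 5.6, 5.9 and 5.1 to 4.4, 4.1 and 4.5 (-1.20 ± 0.20, limma adjusted p = 0.0215). Klrk1, the activating receptor NKG2D, fell from 5.3, 5.1 and 4.8 to 4.3 on all 3 arrays (-0.77 ± 0.13, adjusted p = 0.0235). Neighbouring genes of the same receptor families were called down as well, Klrb1b (-1.0), Klri1 (-0.90), Klrc1 (-0.90) and Klrc2 (-0.73), of which Klrc1 and Klrc2 are close paralogues that can share probes. Nkg7, a granule protein of NK and T cells, was 8.2, 7.4 and 7.1 against 6.6, 6.4 and 6.1 and did not pass (-1.20 ± 0.26, adjusted p = 0.0545). The granzyme gene Gzma was 5.0, 4.7 and 4.6 against 4.1, 4.4 and 4.4 (-0.47 ± 0.15, adjusted p = 0.136), Gzmb changed by -0.20 ± 0.13 and Prf1, perforin, by 0.20 ± 0.16. Gzma and Gzmb lay near the lower quartile of the arrays in both states. The lymphocyte chemokine gene Ccl5 stood at 9.6, 8.4 and 8.8 against 8.2, 8.2 and 7.2 (-1.07 ± 0.36, adjusted p = 0.153).

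The 15 largest decreases included further genes known from lymphocytes or dendritic cells. P2ry10, a lysophospholipid receptor of lymphocytes, fell from 5.5, 5.6 and 5.1 to 4.0, 4.2 and 4.0 (-1.33 ± 0.19, limma adjusted p = 0.0141). Ptpn22, a phosphatase that restrains antigen receptor signalling, fell by 1.30 (SE 0.22), and Klhl6, an adaptor of B cell signalling, by 1.27 (SE 0.22). The calls of Klhl6 and of Apol7c were lost whichever array was left out. BC023105 fell from 7.8, 7.9 and 6.2 to 4.8, 5.7 and 4.5 (-2.30 ± 0.41), and Apol7c, an apolipoprotein L of dendritic cells, from 7.0, 6.2 and 6.7 to 5.0, 5.6 and 4.4 (-1.63 ± 0.33). Both spread widely between replicates and did not overlap between states. Btla (-1.13), Cd69 (-1.07), Ikzf3 (-1.03), Tespa1 (-1.03) and Gpr174 (-0.90), all genes of lymphocytes, were called too and were named after their values were seen.

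Mir142, the gene of a microRNA made by blood cells, was also called down, from 5.5, 5.6 and 5.1 to 4.2, 4.2 and 4.3 (-1.17 ± 0.15, limma adjusted p = 0.00889). A probe set of this array cannot tell the 2 mature arms apart, so both are printed from RefSeq (GRCm38.p6, plus strand of chromosome 11, bases 87756867 to 87756887 and 87756903 to 87756925) with the seed, bases 2 to 8, in capitals. The arms have different seeds and hence different sets of possible targets. Mir142 was named after its value was seen.
mmu-miR-142a-5p: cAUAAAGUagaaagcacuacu
mmu-miR-142a-3p: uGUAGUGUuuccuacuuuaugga

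Of 18 pan-leukocyte and homing genes 17 had a negative change (median -0.77) and 2 were called down, where 0.451% of all genes were. Coro1a, an actin regulator of leukocytes, fell from 8.7, 8.5 and 8.0 to 7.5, 7.2 and 7.4 (-1.03 ± 0.21, limma adjusted p = 0.0458). Cxcr5, the receptor that guides B cells to follicles, fell by 0.77 (SE 0.16). Ptprc, which encodes the leukocyte antigen CD45, was 9.3, 9.3 and 8.5 against 7.9, 7.9 and 8.4 and did not pass (-0.97 ± 0.31, adjusted p = 0.136). The homing chemokine gene Ccl19 stood at 8.6, 8.0 and 7.8 against 7.0, 7.3 and 6.8 (-1.10 ± 0.32, adjusted p = 0.112). Of 27 macrophage and dendritic cell genes 0 were called (median 0.03), and of 18 granulocyte and mast cell genes 0 (median 0.07). The macrophage median was -0.28 without P12.5 array 3, and -0.41 with 3 genes called down when the stromal level was a covariate. The mean of the macrophage list was 7.11 to 7.44 in NP and 6.87 to 7.48 in P12.5 male grafts, which overlapped.

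Of 15 genes of MHC class I and II, 13 had a negative change (median -0.50). P12.5 lay lower without overlap for 10, against 9.66% of all genes. The 1 gene called down, where 0.451% of all genes were, was H2-Ob, a chain of the H2-O molecule that restrains peptide loading in B cells. It fell from 6.8, 7.4 and 7.0 to 5.7, 5.8 and 6.1 (-1.20 ± 0.18, limma adjusted p = 0.0149), a call lost without NP array 2 or P12.5 array 2. H2-Aa, a chain of the main class II molecule, was 11.0, 10.7 and 10.5 against 10, 10.1 and 10.3 and did not pass (-0.60 ± 0.29, adjusted p = 0.280). Class I and II genes are alike in sequence, so values of single members are uncertain. Of 21 interferon-induced genes 0 were called, with 14 positive and 7 negative changes and a median of 0.23. Cxcl9, a chemokine induced by interferon gamma, was 8.9, 7.9 and 7.4 against 6.8, 6.9 and 6.5 (-1.33 ± 0.37, adjusted p = 0.102), and Irf1 was 8.5, 8.3 and 7.9 against 7.4, 7.5 and 7.4 (-0.80 ± 0.17, adjusted p = 0.0572). Oas2 (0.97 ± 0.42, adjusted p = 0.236) and Irf7 (0.73 ± 0.39, adjusted p = 0.323) had positive values and were highest on P12.5 array 3.

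**Figure D4:**
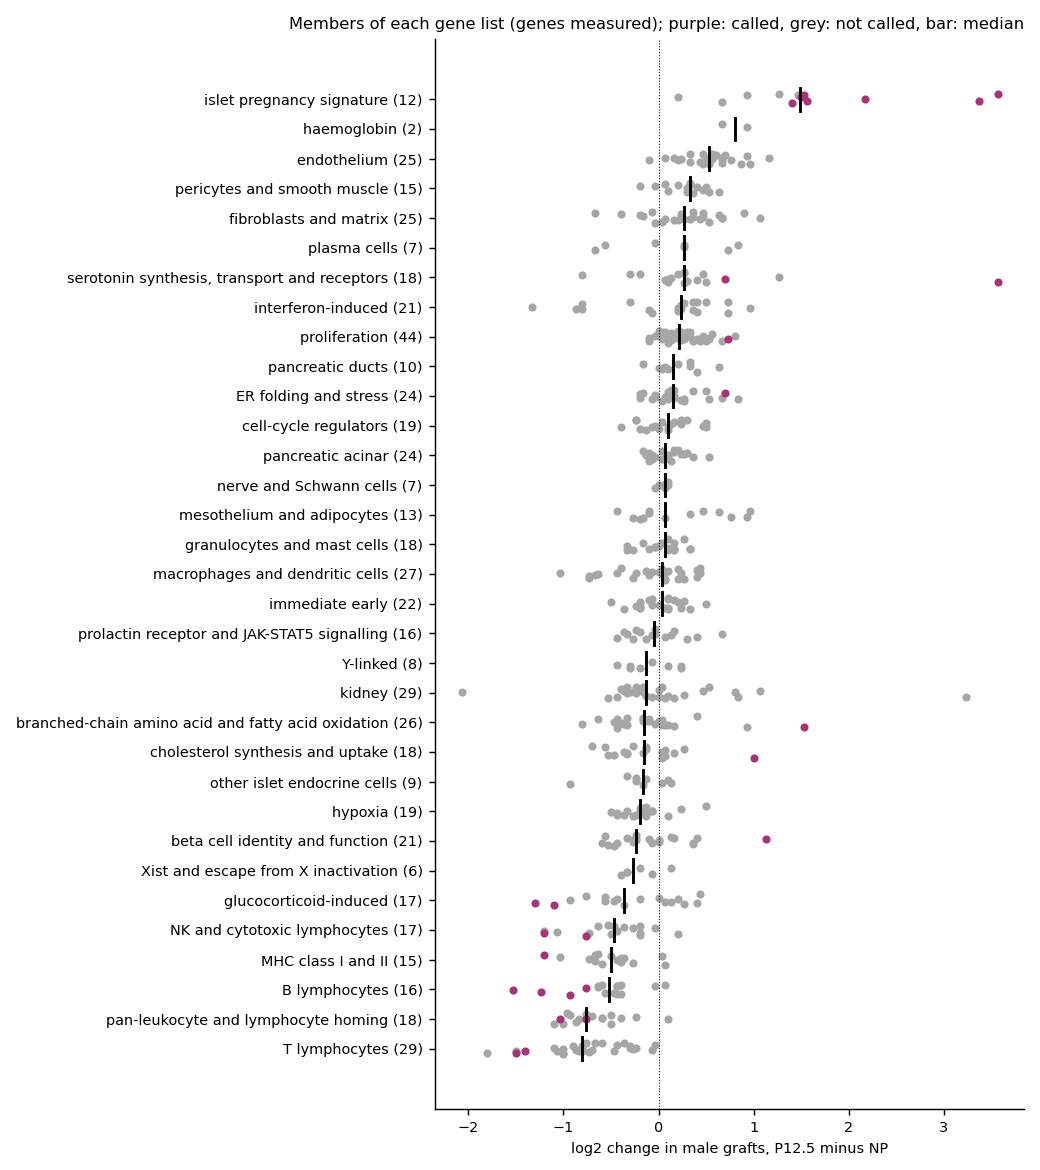
Log2 change in male grafts, P12.5 minus NP (x axis), of every measured member of 33 gene lists (y axis, number of genes measured in brackets, ordered by the median). Each point is a gene, purple where called, and the black bar is the list's median, which runs from -0.80 for T lymphocytes to 1.48 for the islet pregnancy signature.

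The combined level of the B, T and NK lists stood beside these results as a property of each graft. It was 6.31, 6.26 and 5.78 on the NP and 5.51, 5.47 and 5.43 on the P12.5 male arrays, 5.30 to 5.62 in the female grafts and 5.13 to 5.27 in islets from the pancreas. The defining T cell gene Cd3e was 7.8, 7.3 and 6.4 in NP and 6.7, 6.7 and 6.3 in P12.5 male grafts, and was at 6.4 to 7.2 in female grafts, so it was not near the lower quartile in any graft. With that combined level as a covariate, limma called 0 probe sets in male grafts, with 5024 at an unadjusted p under 0.05. Tph1 then changed by 3.84 (adjusted p = 0.0737), Cldn8 by 2.00 (adjusted p = 0.172) and Cd2 by 0.08. Because the covariate separates the NP from the P12.5 male grafts, that fit has little left to tell the states apart, and the part of lymphocyte RNA in the other changes was not tested.

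Fibroblast and matrix genes averaged 8.69, 8.12 and 8.12 on the NP and 8.34, 7.91 and 9.48 on the P12.5 arrays, 7.74 to 8.94 in female grafts and 5.90 to 6.24 in islets from the pancreas. Of 25 measured, 0 were called (median 0.27, and -0.15 without P12.5 array 3). Col1a1, a chain of type I collagen, was 11.5, 10.7 and 10.4 against 11.1, 10.3 and 12.2. P12.5 array 3 was the highest male array for this gene, as it was for Xist. With the combined stromal level as a covariate 418 probe sets were called, and 37 of the 42 named called genes kept their call.

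Of 25 endothelial genes 24 had a positive change and 0 were called. Their median was 0.53, and 0.22 without P12.5 array 3. They averaged 6.84, 6.52 and 6.54 in NP and 7.03, 6.71 and 7.76 in P12.5 male grafts, so the states overlapped. Emcn, a sialomucin of veins and capillaries, was 6.7, 6.4 and 6.2 against 7.6, 7.1 and 8.1 (1.17 ± 0.43, limma adjusted p = 0.179). Flt1, a receptor for vascular endothelial growth factors, was 6.8, 6.5 and 6.4 against 7.5, 7.0 and 7.8 (0.87 ± 0.32, adjusted p = 0.176). Pecam1 overlapped between states, at 7.4, 7.2 and 6.8 against 7.3, 7.0 and 8.4.

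Kidney genes differed from graft to graft within both states. Of 29 measured 0 were called, with a median of -0.13 that ran from -0.68 without NP array 1 to 0.33 without P12.5 array 2, and their mean was 6.31, 8.10 and 7.63 on the NP and 8.14, 6.34 and 7.68 on the P12.5 arrays, against 5.54 to 5.66 in islets from the pancreas. Slc34a1, the phosphate transporter of the proximal tubule, varied likewise, at 7.6, 10.5 and 9.6 against 10.7, 7.3 and 9.8. Kap, a kidney gene that androgens induce, varied as widely among the P12.5 grafts: it was 5.9, 6.8 and 5.6 in NP and 9.1, 7.7 and 11.2 in P12.5 male grafts, without overlap and without passing (3.23 ± 1.30, limma adjusted p = 0.206). A female NP graft reached 10.6 for Kap, so a level in that range was not limited to pregnant hosts.

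The remaining lists held 0 called genes in male grafts. Their medians were 0.33 for pericytes and smooth muscle (15 genes), 0.07 for mesothelium and adipocytes (13), 0.07 for nerve and Schwann cells (7), 0.15 for pancreatic ducts (10) and 0.07 for pancreatic acinar cells (24). Immediate early genes had a median of 0.03 (22 genes), hypoxia genes of -0.20 (19), Y-linked genes of -0.13 (8) and Xist with genes that escape X inactivation of -0.27 (6). The 2 erythroid genes measured, Alas2 and Slc4a1, had changes of 0.67 and 0.93.

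Grafts of female donors gave the same comparison on other arrays but in the same fit. A gene thus had the same SE in both, and shared calls are not an independent repeat. In female grafts 143 of the 19938 genes were called up and 90 down. The 61 genes called up in male grafts had a median change of 0.90 there and 0.83 in female grafts, where 60 of them were positive and 43 called up (70.5% of the male and 30.1% of the female list). The 90 genes called down had a median of -0.83 in male and -0.43 in female grafts, where 85 were negative and 20 called down (22.2% of each list). Of the 90, 11 belonged to the B, T, NK, pan-leukocyte or MHC lists: 0 of these were called in female grafts, and their median there was -0.13. Ddit4 (-1.03), Rgs2 (-1.17), Anp32e (-0.87), Glul (-0.93) and Hapln1 (-1.33) were called down in female grafts, whereas Ms4a1 changed by -0.17 ± 0.19, Cd79a by 0.33 ± 0.20 and Cd2 by -0.17 ± 0.29. A gene was chosen here for its change in male grafts, so a smaller female median by itself shows no difference.

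The difference between the donor sexes was therefore tested directly as an interaction in limma, and 0 of the 35511 probe sets were called (0%), with a smallest adjusted p of 0.471 and 1772 (4.99%) at an unadjusted p under 0.05. Among the 62 lymphocyte genes 59 had the lower change in male grafts, and 29 had an unadjusted p under 0.05, against 3.40% of all genes. The lymphocyte genes tend to move together, so these are not 29 separate results. Other lists held such genes too: of 44 proliferation genes 9 had an unadjusted p under 0.05. The median change of that list was 0.22 in male and 0.45 in female grafts. Cd79a had the smallest p of the 62 genes (-1.57 ± 0.28, unadjusted p = 0.000143, adjusted p = 0.711), followed by Ms4a1 (-1.37 ± 0.27, adjusted p = 0.817). For Tph1 the male minus female difference in change was -0.83 ± 0.32 (adjusted p = 0.955), and for Gbp8 it was -0.73 ± 0.19 (adjusted p = 0.955).

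**Figure D5:**
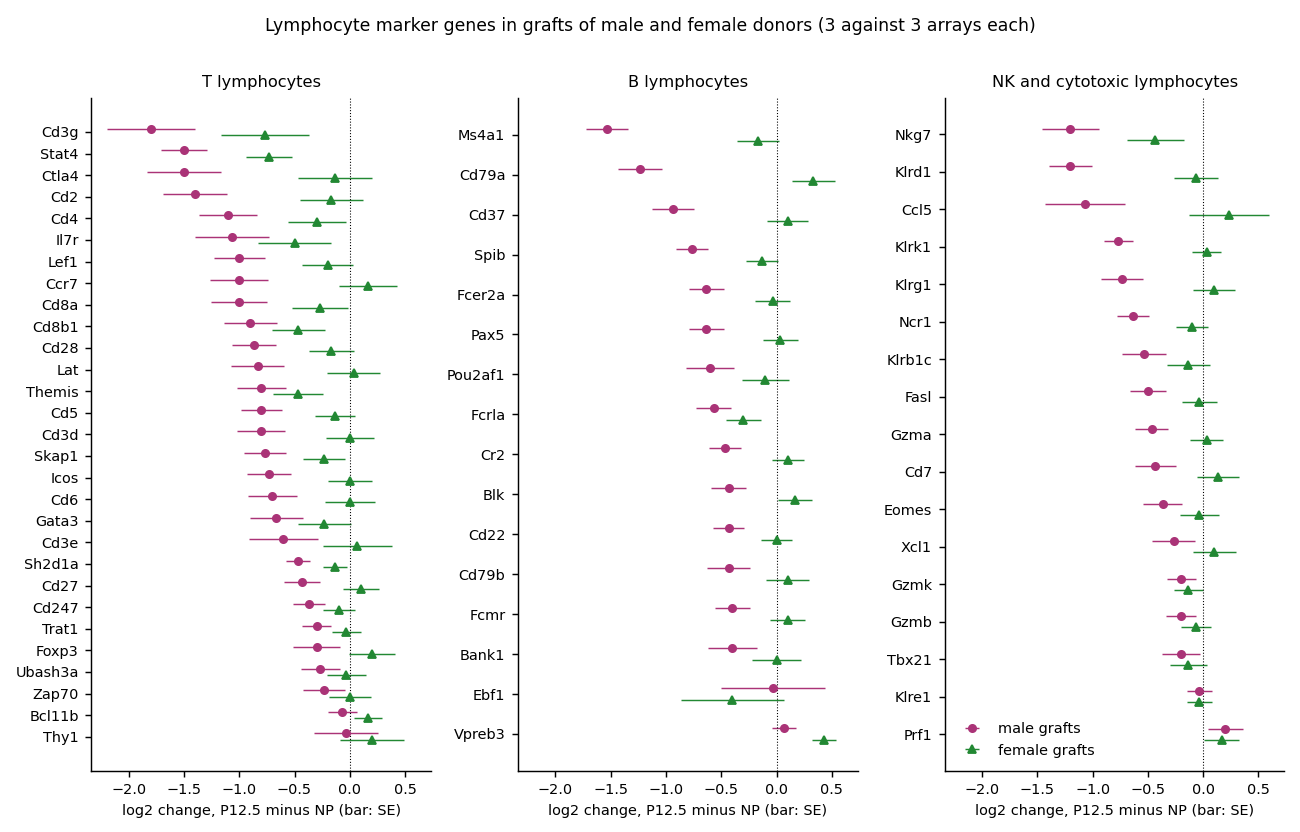
Log2 change, P12.5 minus NP (x axis), with its SE (bars), of 29 T cell, 16 B cell and 17 NK and cytotoxic genes (y axis) in grafts of male and female donors, 3 against 3 arrays each. Male points lie left of 0 for 60 of the 62 genes. Female points lie on both sides of 0, with medians of -0.13 for T cell, 0.02 for B cell and -0.03 for NK genes. The lowest female value was that of Cd3g (-0.77), and 0 of the 62 genes were called in female grafts.

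Male and female grafts were also set against each other within a state, a comparison added after the values were seen and one that shares its NP male arrays with the pregnancy comparison. In NP hosts 4 genes were called (0.0201%): Eif2s3y, Uty and Kdm5d from the Y chromosome, and Ms4a1, which was 1.53 higher in male grafts (limma adjusted p = 0.0430). The medians of the male minus female difference were 0.63 for T cell, 0.58 for B cell and 0.50 for NK genes in NP hosts, and 0.00, 0.07 and 0.00 in P12.5 hosts. In P12.5 hosts the 3 Y-linked genes were the only ones called (0.015%). Kidney genes had the opposite sign in the 2 states, with medians of -0.73 in NP and 0.50 in P12.5 hosts and 0 called.

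The response of male grafts was compared with that of islets in the pancreas as an interaction on all 20 arrays, where 94 genes were called (0.471%), 78 with the lower change in grafts. The islet arrays are labelled as analysed before and streptozotocin is described for graft hosts only, and these islets came from females, so label, treatment and donor sex cannot be told apart from the site. Gbp8, for one, changed by 0.93 ± 0.13 in female grafts. Ms4a1, Stat4, Klrd1, Coro1a and other lymphocyte genes were on this list, with changes near 0 in islets. Other called genes changed in islets and not in male grafts. Gbp8 rose by 1.63 in islets and stood at 0.20 in male grafts, a difference of -1.43 ± 0.18 (limma adjusted p = 0.00492). The replication genes Pcna (0.70 in islets, -0.10 in male grafts, adjusted p of the difference 0.0213) and Mcm3 (0.80 and -0.03, adjusted p = 0.0221) had the same pattern, as had the DNA damage gene Gadd45a (1.35 and 0.37, adjusted p = 0.0198). Of the signature genes, Gbp8 was the only one whose change was called different between male grafts and islets. Neb alone had the larger change in male grafts (difference 0.42 ± 0.26). The differences of the other uncalled signature genes ran from -0.05 for Car8 to -1.21 for Tph1 (limma adjusted p = 0.940 and 0.108). Signature genes had been picked for their rise in islets in the pancreas, a choice that favours a negative difference.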

How the data were processed

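RNA of 12 grafts and 8 islet samples was hybridised to 1-colour mouse gene arrays, 1 array per sample. The deposited values are log2 expression per probe set, which the authors made by robust multichip analysis (background correction, quantile normalisation and probe summary with aroma.affymetrix) and rounded to 1 decimal. Quantile normalisation gives the arrays like distributions, so changes are relative, and values near the lower quartile (4.7 to 4.9) are compressed. The number of arrays limits the precision.

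Groups came from the labels. Where several probe sets named 1 gene only, that of the highest mean over the 20 arrays stood for it. Of 35511 probe sets 21789 carry 1 symbol, 1621 several and 12101 none. limma 3.58.1 in R 4.3.3 fitted the 4 graft groups together on 12 arrays (lmFit, eBayes), with the donor sex difference as an interaction, and the site difference was fitted on 20 arrays. A call required an adjusted p (Benjamini-Hochberg, all probe sets) under 0.05 and a fold of at least 1.5. The fit was tested on simulated data.

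Named genes were the 12 signature genes, the 15 largest rises and 15 largest falls without overlap between states, called list members and marker genes. Members, lists and rules were chosen with earlier results of these data known. The comparison of male with female grafts within a state was added after the data had been seen. Alternatives were the arrays fitted, scaling, low-value filter, prior, fold minimum, a replicate block, lymphocyte and stromal covariates and leaving out each array. Columns of other series numbered 0.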

Additional observations from a re-analysis of the deposited data

Results flagged for a closer look

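The pregnancy response of 13 named genes differed between male grafts and islets in the pancreas by the interaction test in limma. For 12 the difference, male graft change minus islet change on the log2 scale, was negative. It was -2.10 for BC023105 (adjusted p = 0.0383), -1.48 for Ms4a1 (adjusted p = 0.0107), -1.40 for Stat4 (adjusted p = 0.0144), -1.38 for P2ry10 (adjusted p = 0.0129), -1.37 for Anp32e (adjusted p = 0.0129), -1.33 for Klrd1 (adjusted p = 0.0144) and -1.28 for Ptpn22 (adjusted p = 0.0213). It was -1.20 for H2-Ob (adjusted p = 0.0173), -1.11 for Coro1a (adjusted p = 0.0402), -0.87 for Klrk1 (adjusted p = 0.0237) and -0.84 for Spib (adjusted p = 0.0397). In these 11 genes the islet change lay between -0.20 and 0.13. The 11 were named for a called decrease on the same male arrays, a choice that favours a negative difference. Gbp8 stood apart, since its difference of -1.43 (adjusted p = 0.00492) came with a rise of 1.63 in islets and 0.20 in male grafts. Mir297b had the 1 positive difference, 1.19 (adjusted p = 0.0383), and its near-identical copies make it uncertain. The islet arrays are labelled as a reanalysis, which cannot be told apart from the site.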

How the results depend on the processing

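Against 331 probe sets called in male grafts, 13 were called in a fit of the 6 male arrays alone, 1059 with all 20 arrays, 542 with array medians subtracted (23.4% up, against 51.4%) and 0 with the lymphocyte level as a covariate. The last and the first also lowered the signature genes called from 7 to 0 and 3. Leaving out 1 array gave 46 to 479 probe sets and 6 to 7 signature genes: 394 without NP array 1, 46 without NP array 2, 173 without NP array 3, and 479, 67 and 119 without P12.5 arrays 1, 2 and 3. With 1 array left out, the site difference gave 75 to 455 probe sets (455 without NP array 1, 75 without NP array 2, 388 without P12.5 array 1 and 75 without P12.5 array 3) against 215, and 543 with array medians subtracted. The donor sex difference stayed at 0 under every alternative but the block. The cause of these shifts was not tested.

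For male grafts of the same replicate number the deviations from the group mean correlated at -0.132, 0.141 and -0.123, while unmatched numbers reached 0.201 and 0.185. With 3 arrays a group this cannot exclude a pairing, and the samples were fitted as unpaired. With the replicate number as a block 124 probe sets were called in male grafts, 7 signature genes, 1 probe set without a symbol for the sex difference and 141 for the site difference.

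Signs turned in the following results, none of them called except Cd2. With the lymphocyte covariate Cd2 was 0.0805, Sst -0.0478, Xist 0.142, Ptprc 0.357, Cd3e 0.945 and Slc34a1 -0.55. With the stromal covariate Ppy was 0.0818, Col1a1 -0.235, Pecam1 -0.0584 and Slc34a1 -0.0634, and with medians subtracted Slc34a1 was -0.0667. With 1 array left out the changes ranged from -0.5 (without NP array 1) to 0.117 (without P12.5 array 3) for Ppy, from -0.55 (without P12.5 array 3) to 0.4 (without P12.5 array 2) for Xist, from -0.517 (without NP array 1) to 0.0333 (without NP array 3) for Eif2s3y, from -0.167 (without P12.5 array 3) to 0.783 (without P12.5 array 2) for Col1a1 and from -0.783 (without NP array 1) to 1.02 (without P12.5 array 2) for Slc34a1. Of 42 named called genes 15 kept their call whichever array was left out, and Htr2b, Dhcr7, Klhl6 and Apol7c lost it each time. Coro1a, Cxcr5, Cd37, Cd2, Rgs2, Tmem255a, Usp17ld, Edem1, Errfi1 and Prc1 lost it without any of 5 arrays each. Hapln1, BC023105 and Spib lost it without any of 4 arrays each. The kidney list's median changed sign, from -0.68 without NP array 1 to 0.33 without P12.5 array 2, and the macrophage list's ran from -0.28 without P12.5 array 3 to 0.22 without P12.5 array 2. The T cell list's median ranged from -1.02 to -0.67 when 1 array was left out and was 0.12 with the lymphocyte covariate.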
